A study of Mus musculus with 45 samples.

Results

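Krt7, Krt19, Krt8, Krt18, Sox9, Epcam, Spp1 and Cldn7 are 8 genes used to mark cholangiocytes, the epithelial cells that line the bile ducts, and the duct-like progenitor cells that appear in injured liver. They were listed by name and matched by Ensembl ID to the deposited gene counts of a mouse liver regeneration study, where they are 8 of 19966 genes. Liver RNA came from C57Bl/6 mice on a normal diet, 8 to 12 weeks old at surgery, which were either wild type (WT, 22 libraries) or Uhrf1hepKO (KO, 23 libraries). The name KO stands for loss in hepatocytes of Uhrf1, whose protein guides the copying of DNA methylation at replication. Besides a baseline group, each genotype had a group at every one of 7 times after partial hepatectomy, the removal of 2/3 of the liver (24, 30, 40, 48 and 96 h, then 7 days, then 4 weeks), so all but the baseline groups share that surgery. A group had 3 libraries, except for 3 groups of 2, namely the WT groups of 30 and 48 h and the KO group of 7 days. The deposited column names of the baseline libraries begin with 40hrs_b, and whether that ties them to the 40 h libraries is not stated. The sources used here do not name the promoter that drives the deletion, or say whether duct cells also lost Uhrf1. Nothing in the labels ties each library to its own animal. The p-values below therefore cover the spread among these libraries, part of which may be technical.

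Keratins are the intermediate filaments of epithelia, and each filament pairs a type II keratin (Krt7, Krt8) with a type I keratin (Krt18, Krt19). Hepatocytes make Krt8 and Krt18 alone, whereas cholangiocytes also make Krt7 and Krt19. Sox9 is the transcription factor of the ductal plate and of duct cells, Spp1 (osteopontin) is a secreted matrix protein made by duct cells and by macrophages, Epcam is a surface adhesion protein, and Cldn7 is a tight junction claudin that binds Epcam. When hepatocytes of an injured liver cannot divide, duct cells can expand in a ductular reaction that carries these markers. After partial hepatectomy the remaining hepatocytes themselves divide and regrow the mass.

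The keratins lie in the keratin gene clusters. On GRCm38 (mm10), Krt7 (ENSMUSG00000023039) is on chromosome 15 at 101411043 to 101430313 on the plus strand, Krt8 (ENSMUSG00000049382) at 101996698 to 102004482 on the minus strand, and Krt18 (ENSMUSG00000023043) at 102028180 to 102032027 on the plus strand. Krt8 and Krt18 point away from each other across a gap of 23.7 kb that holds 0 other annotated genes, while 42 genes lie between Krt7 and Krt8. RefSeq promoter windows (GRCm38.p6) matched 6 of the 8 genes by symbol, and Krt19 and Sox9 were not among them. The 250 bases before the RefSeq start are printed here, 5′ to 3′ on the strand of each gene, for Krt8, Krt18 and Krt7. Krt8 and Krt18 are the adjacent pair and the most abundant of the 8 genes. Krt7 had the largest fold change from baseline of the tested genes in each genotype. For all 3 the RefSeq start lies inside the Ensembl gene span given above, so the window overlaps that span. Capitals mark matches on either strand to the motifs of AP-1 (TGACTCA), TEAD (GGAATG), RBPJ (TGGGAA) and SP1 (GGGCGG) or to the TATA box (TATAAA), of which the TEAD and RBPJ motifs share the letters GGAA.
Krt8, chr15:102004343-102004592, minus strand: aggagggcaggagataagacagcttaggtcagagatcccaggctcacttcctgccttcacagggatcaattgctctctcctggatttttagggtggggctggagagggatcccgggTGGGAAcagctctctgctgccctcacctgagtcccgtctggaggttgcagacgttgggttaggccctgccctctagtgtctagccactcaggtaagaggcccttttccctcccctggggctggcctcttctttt
Krt18, chr15:102027966-102028215, plus strand: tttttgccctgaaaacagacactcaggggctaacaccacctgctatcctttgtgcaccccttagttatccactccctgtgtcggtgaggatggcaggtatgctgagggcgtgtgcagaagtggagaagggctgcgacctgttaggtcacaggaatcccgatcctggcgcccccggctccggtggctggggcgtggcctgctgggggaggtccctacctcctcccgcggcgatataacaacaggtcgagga
Krt7, chr15:101412153-101412402, plus strand: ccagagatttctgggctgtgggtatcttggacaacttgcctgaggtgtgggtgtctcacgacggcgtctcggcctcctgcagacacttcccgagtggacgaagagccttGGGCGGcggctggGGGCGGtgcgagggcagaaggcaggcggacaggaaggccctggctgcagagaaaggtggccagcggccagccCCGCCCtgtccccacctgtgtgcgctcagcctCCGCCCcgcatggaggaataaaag

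The Krt8 window held 1 RBPJ match, 134 bases before the start, and 3 CG pairs. The Krt18 window held none of the 5 motifs and 12 CG pairs, and the Krt7 window held 4 SP1 matches and 16 CG pairs. Over 32841 windows of the same length, 21.6% held the RBPJ motif, 32.7% SP1, 12.6% TEAD, 12.4% TATA and 4.46% AP-1, and the median number of CG pairs was 6. These matches are letters in a window and were not tested against the expression values. The other genes are Krt19 (ENSMUSG00000020911, chromosome 11, 100140810 to 100148665, minus), Sox9 (ENSMUSG00000000567, chromosome 11, 112782224 to 112787760, plus) and Epcam (ENSMUSG00000045394, chromosome 17, 87635979 to 87651129, plus). Spp1 (ENSMUSG00000029304) is at 104435118 to 104441050 on chromosome 5, plus strand, and Cldn7 (ENSMUSG00000018569) at 69964779 to 69967885 on chromosome 11, plus strand. The annotation places Gm671 (antisense) over Krt7, Gm36026 (a long noncoding RNA on the other strand) over Krt8 and Gm42793 over Spp1, and without a stated strand setting their reads cannot be told apart from those of the 3 genes.

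Total counts per library ran from 12.85 M to 23.13 M, and counts were scaled to CPM (counts per 1 M) with edgeR's TMM factors. The targeted gene checks the labels where it is expressed. At 40 h Uhrf1 stood at 64.9, 27.5 and 107 CPM in WT and at 4.85, 8.95 and 3.59 in KO (log2 −3.52 ± 0.50, edgeR adjusted p = 0.000314). At baseline and 4 weeks Uhrf1 stayed at or below 0.644 CPM in both genotypes, which leaves nothing to check. At 96 h it stood at 0.792, 0.148 and 0.284 CPM in the libraries labelled WT and at 0.270, 1.76 and 2.07 in those labelled KO, and edgeR called 14.3% of all genes between the 2 sets, against 0.242% over the other 7 conditions. The 96 h libraries are therefore described as labelled and kept out of the counts below. Here a gene is called where the edgeR quasi-likelihood test gave an adjusted p under 0.05 over 14090 tested genes. Of the 8 genes, 7 passed the filter on low counts, and Cldn7, at 1 to 13 counts per library, did not.

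**Figure D1:**
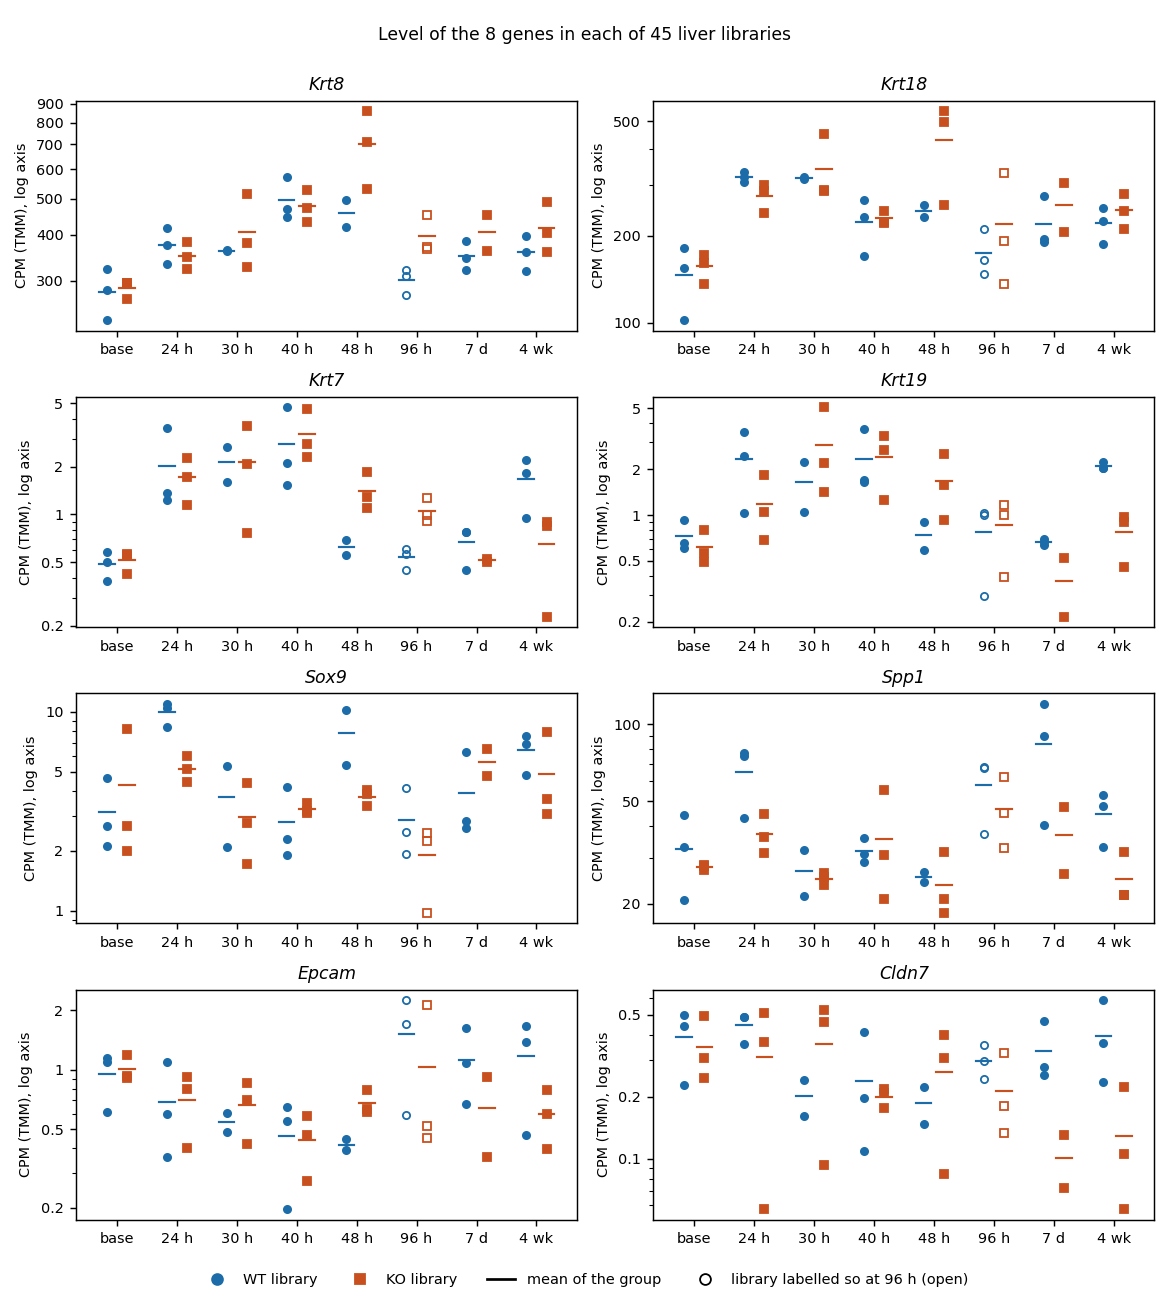
CPM of each of the 8 genes (log axes) in every library by condition, with circles for WT, squares for KO, short lines for group means and open symbols for the 96 h libraries as labelled. Krt8 and Krt18 sit between 102 and 861 CPM, and Krt7 and Krt19 are highest between 24 and 40 h in both genotypes.

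Per length of transcript (FPKM, fragments per kilobase and per 1 M fragments), the 2 keratins shared with hepatocytes stood far above the other genes. The median over 45 libraries was 185 FPKM for Krt8 and 167 for Krt18, against 24.2 for Spp1. It was 0.829 for Krt19, 0.819 for Sox9, 0.343 for Krt7, 0.313 for Epcam and 0.258 for Cldn7. In whole liver the duct genes Krt7, Krt19, Sox9, Epcam and Cldn7 were thus present at under 1 FPKM at the median, and the abundant Krt8 and Krt18 are not restricted to duct cells. Of the other biliary markers examined, Sctr, the secretin receptor of bile duct cells, had a count in 10 of 45 libraries. In bulk tissue such as this, a lower value can mean fewer cells of a type or less RNA per cell, and the 2 cannot be told apart.

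With the 16 groups sorted by mean, neighbouring groups overlapped in 14 of 15 steps for Krt7, Krt8, Krt18 and Spp1. They overlapped in 15 of 15 for Krt19, Sox9, Epcam and Cldn7. Sorting sets like groups side by side, so overlap is likely for any gene, and the share over all genes was not computed. Uhrf1, whose highest and lowest group means differed by 569 times, overlapped in 12 of 15 steps. The highest and lowest group means differed by 7.83 times for Krt19 (KO at 30 h over KO at 7 days), 6.59 times for Krt7 (KO at 40 h over WT baseline) and 5.23 times for Sox9 (WT at 24 h over the group labelled KO at 96 h). For Krt8 the ratio was 2.50 and for Krt18 it was 2.95, in both cases KO at 48 h over WT baseline. It was 3.53 for Spp1 (WT at 7 days over KO at 48 h), 3.63 for Epcam (the group labelled WT at 96 h over WT at 48 h) and 4.39 for Cldn7 (WT at 24 h over KO at 7 days).

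The first comparison asks how these genes moved during regeneration, with each time set against baseline within a genotype. In WT livers 14 of 42 gene-by-time pairs were called, all 14 of them higher than baseline. Among all genes 18.7% of such pairs were called, and 9.55% were called higher. In KO livers 14 of 42 pairs were also called, again all higher, against 23.8% of all pairs called and 12.1% called higher. An F test over the 6 times called 6 of 7 genes in WT, where it called 53.6% of all genes, and 4 of 7 in KO, where it called 65.7%. The 4 called in KO are the keratins. The WT call of Krt18 in this F test was lost without replicate 3 of the WT baseline (edgeR adjusted p = 0.052). By time, the genes called in WT numbered 5 of 7 at 24 h (22.4% of all genes), 2 at 30 h (17.7%), 3 at 40 h (36.5%), 3 at 48 h (31%), 1 at 7 days (3.56%) and 0 at 4 weeks (1.17%). In KO they numbered 2 at 24 h (23.7%), 4 at 30 h (33.1%), 3 at 40 h (35.6%), 4 at 48 h (36%), 0 at 7 days (5.56%) and 1 at 4 weeks (8.57%). The WT calls all rest on the same 3 baseline libraries, and likewise for KO, so the times are not independent of each other. Without replicate 3 of the WT baseline 9 of the 42 WT pairs were called, and without replicate 3 of the KO baseline 9 of the 42 KO pairs. On FPKM, limma called 9 KO pairs.

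**Figure D2:**
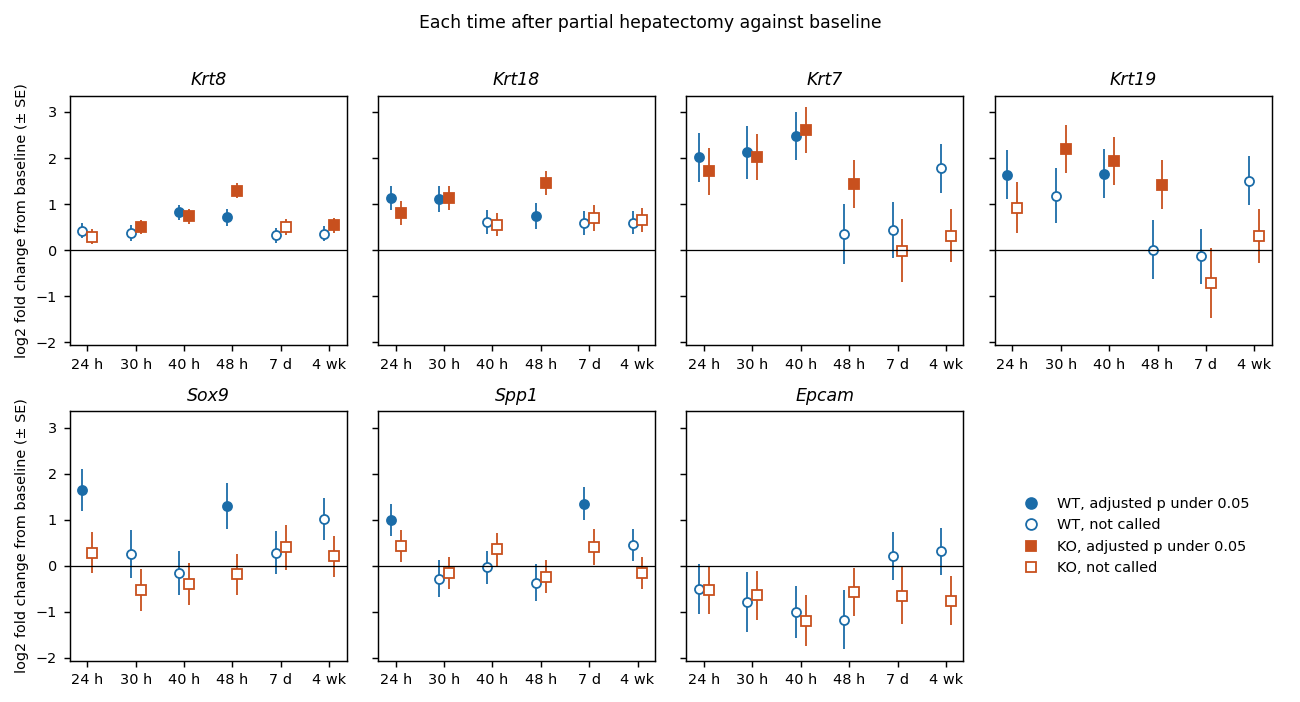
Log2 fold change from baseline at each time after surgery for the 7 tested genes, WT as circles and KO as squares, with bars for the standard error and filled symbols for calls at an edgeR adjusted p under 0.05. Krt7 reaches 2.49 in WT and 2.61 in KO at 40 h, while Sox9 and Spp1 have filled symbols in WT and none in KO.

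Krt8, the type II keratin of hepatocytes and duct cells, was higher after surgery in both genotypes. WT libraries held 322, 283 and 235 CPM at baseline, 467, 571 and 447 at 40 h, and 497 and 419 at 48 h. All WT libraries at 40 and 48 h stood above every WT baseline library. Krt8 rose by log2 0.82 ± 0.16 at 40 h (1.77-fold, edgeR adjusted p = 0.000103) and by 0.71 ± 0.18 at 48 h (edgeR adjusted p = 0.00203). The 48 h call was lost without replicate 2 of WT at 48 h (edgeR adjusted p = 0.062). At 24 h in WT Krt8 stood at 0.42 ± 0.16 and just missed the threshold (edgeR adjusted p = 0.054); it passed with DESeq2 (adjusted p = 0.0393) and with RLE size factors (edgeR adjusted p = 0.0498), in the fit without the 96 h libraries (0.0468), on FPKM (limma adjusted p = 0.0285), and without replicate 2 of WT at 24 h or replicate 1 of the WT baseline (edgeR adjusted p = 0.0412 and 0.0366).

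In KO livers Krt8 had its highest level of the series at 48 h. The KO libraries held 296, 297 and 269 CPM at baseline, 379, 328 and 513 at 30 h, and 432, 472 and 527 at 40 h. At 48 h they held 708, 861 and 532 CPM, above each of the other KO libraries. Krt8 rose by log2 0.50 ± 0.16 at 30 h (edgeR adjusted p = 0.0147), 0.73 ± 0.16 at 40 h (0.000444) and 1.29 ± 0.16 at 48 h (2.44-fold, 7.41e-08). From 40 to 48 h it rose by 0.55 ± 0.16 (edgeR adjusted p = 0.0424), a step at which 4.15% of all genes were called, and from 48 h to 7 days it fell by 0.78 on the log2 scale (SE 0.18, edgeR adjusted p = 0.00124), where 29.1% were called. At 4 weeks KO livers still held 489, 404 and 358 CPM (log2 0.54 ± 0.16, edgeR adjusted p = 0.0327). The Krt8 call at 30 h was lost without replicate 3 of KO at 30 h or of the KO baseline (edgeR adjusted p = 0.186 and 0.0636), and the 40 to 48 h step was lost without any 1 of 5 of its 6 libraries (0.0526 to 0.243; kept without replicate 3 of KO at 48 h). The Krt8 call at 4 weeks was lost on FPKM (limma adjusted p = 0.247) and without any KO baseline library or replicate 1 or 2 of KO at 4 weeks (edgeR adjusted p = 0.0598 to 0.176).

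Krt18, the type I partner of Krt8, was higher at 24, 30 and 48 h in WT. WT libraries held 182, 155 and 102 CPM at baseline, 333, 308 and 319 at 24 h, and 314 and 321 at 30 h. The 24 and 30 h libraries lay above each of the other WT libraries of the series. Krt18 rose by log2 1.13 ± 0.26 at 24 h (2.19-fold, edgeR adjusted p = 0.00148), 1.12 ± 0.28 at 30 h (0.00464) and 0.74 ± 0.28 at 48 h (0.0436). At 40 h in WT, with 266, 233 and 170 CPM, Krt18 was not called (log2 0.61 ± 0.26, edgeR adjusted p = 0.0613). The 48 h call was lost with the compared libraries alone (edgeR adjusted p = 0.0516), with no filter (0.0502), and without replicate 2 or 3 of the WT baseline or either WT library of 48 h (0.0662 to 0.208). At 40 h the fit without the 96 h libraries (edgeR adjusted p = 0.0311), FPKM (limma adjusted p = 0.0182) and leaving out replicate 1 of the WT baseline or replicate 3 of WT at 40 h (edgeR adjusted p = 0.0346 and 0.033) gave a call. Whether Krt18 and Krt8 differ in timing was not tested.

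In KO livers Krt18 rose at 24 h, at 30 h and again at 48 h. KO libraries held 172, 162 and 137 CPM at baseline, 240, 285 and 300 at 24 h, and 288, 286 and 452 at 30 h. At 40 h they held 224, 244 and 223 CPM, and at 48 h 542, 497 and 256. Replicate 3 of KO at 48 h stood far below the other libraries of its group, yet above the KO baseline and 40 h libraries. Krt18 rose by log2 0.81 ± 0.26 at 24 h (edgeR adjusted p = 0.0195), 1.12 ± 0.26 at 30 h (0.00101) and 1.46 ± 0.26 at 48 h (2.75-fold, 3.44e-05). It was not called at 40 h (0.55 ± 0.26, edgeR adjusted p = 0.0906), but passed there with the compared libraries alone (0.00358). It rose from 40 to 48 h (0.91 ± 0.26, edgeR adjusted p = 0.0408) and fell by 0.75 from 48 h to 7 days (SE 0.29, 0.0493). The Krt18 call at 24 h was lost without replicate 2 or 3 of KO at 24 h or replicate 3 of the KO baseline (edgeR adjusted p = 0.0508 to 0.0872), and both steps were lost without several single libraries (0.0757 to 0.21 for the first, without replicate 1, 2 or 3 of KO at 40 h or 1 or 2 at 48 h; 0.0542 to 0.347 for the second, without replicate 1 or 2 of KO at 48 h or either library of 7 days).

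Because the 2 keratins form 1 filament, their ratio was followed in each library from FPKM. This ratio was chosen after its values were seen and carries no test. Krt18 over Krt8 lay between 0.575 and 0.771 in the 6 baseline libraries of both genotypes, between 0.990 and 1.23 in the 6 libraries of 24 h and between 1.01 and 1.18 in the 5 of 30 h. By 40 h it was back at 0.506 to 0.757. The 11 libraries of 24 and 30 h stood apart from all baseline and 40 h libraries, and WT and KO overlapped at each condition. They did not stand apart from all later libraries, since replicate 1 of KO at 48 h was at 1.02. Replicate 3 of the libraries labelled KO at 96 h was at 0.971 and replicate 1 of WT at 7 days at 0.947. The column names of the baseline libraries begin with 40hrs_b, so a set shared with the 40 h libraries cannot be told apart from time. The summed level of 12 hepatocyte markers was 64193 to 78812 CPM in WT at 24 h against 100240 to 117070 at baseline. In WT 7 of the 12 were called lower at 24 h (11.9% of all genes). In KO the sum was 66483 to 78154 CPM at 24 h against 95205 to 103290 at baseline. Alb had the highest median in that sum (70920 CPM, with Apoa1 next at 6111), so it says little of the others. The part of these markers in the ratio was not tested.

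**Figure D3:**
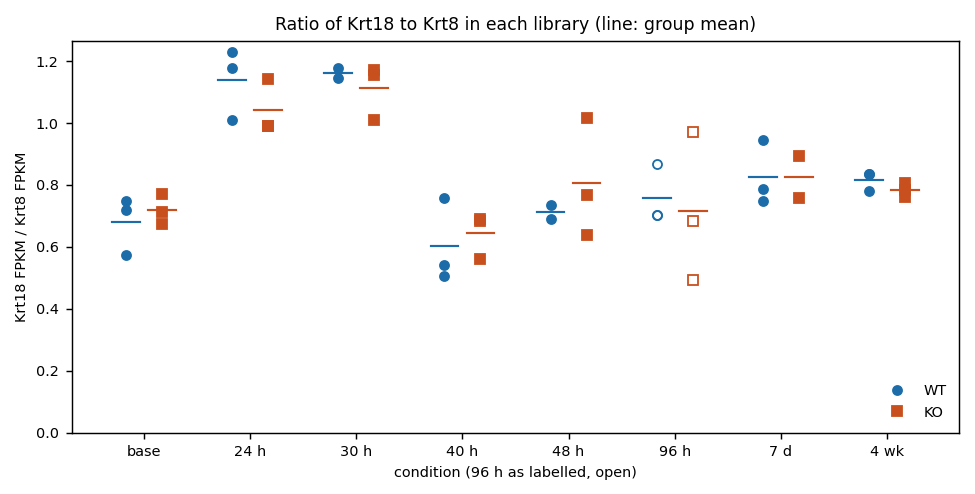
Krt18 FPKM divided by Krt8 FPKM in every library by condition, circles for WT and squares for KO, with lines for group means. At 24 and 30 h the points lie from 0.990 to 1.23, above all points of baseline (0.575 to 0.771) and 40 h (0.506 to 0.757).

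Krt7, the type II keratin of duct cells, showed the largest fold change from baseline of the tested genes in each genotype, at 40 h, from very low counts. WT libraries held 0.584, 0.501 and 0.382 CPM at baseline (8, 7 and 5 counts), 1.24, 3.48 and 1.36 at 24 h, 1.61 and 2.67 at 30 h, and 4.71, 1.54 and 2.1 at 40 h. At 48 h the 2 WT libraries were back at 0.692 and 0.560 CPM. Each WT library from 24 to 40 h lay above every baseline library. Krt7 rose by log2 2.02 ± 0.53 at 24 h (edgeR adjusted p = 0.00524), 2.12 ± 0.58 at 30 h (0.00836) and 2.49 ± 0.52 at 40 h (5.60-fold, 0.000268). The Krt7 call at 24 h was lost without replicate 2 of WT at 24 h (edgeR adjusted p = 0.0761), and that at 30 h without replicate 3 of WT at 30 h (0.153) or on log2(FPKM + 1) (limma adjusted p = 0.0662).

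In KO livers Krt7 rose at 24, 30, 40 and 48 h. KO libraries held 0.422, 0.556 and 0.566 CPM at baseline, 1.15, 1.72 and 2.28 at 24 h, and 2.07, 3.62 and 0.764 at 30 h. They held 2.29, 4.62 and 2.75 CPM at 40 h and 1.10, 1.85 and 1.28 at 48 h. Each of these 12 libraries stood above the KO baseline, and the 7 day libraries, at 0.524 and 0.505 CPM, lay within it. Krt7 rose by log2 1.71 ± 0.52 at 24 h (edgeR adjusted p = 0.0141), 2.02 ± 0.51 at 30 h (0.00235), 2.61 ± 0.50 at 40 h (6.11-fold, 8.10e-05) and 1.43 ± 0.52 at 48 h (0.0284). On FPKM the KO calls of Krt7 at 24, 30 and 48 h were lost (limma adjusted p = 0.562, 0.292 and 0.457 with a pseudocount of 0.1), and the one at 40 h held. Single libraries decided the Krt7 call at 24 h (replicate 3 of KO at 24 h, edgeR adjusted p = 0.0801 without it, or replicate 1 of the KO baseline, 0.0568) and at 48 h (replicate 2 of KO at 48 h or any KO baseline library, 0.058 to 0.119).

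Krt19, the type I keratin that pairs with Krt7 in duct cells, was called higher at 24 and 40 h in WT, 2 of the 3 times at which Krt7 was. WT libraries held 0.657, 0.930 and 0.611 CPM at baseline and 1.03, 3.48 and 2.44 at 24 h. They held 1.05 and 2.24 CPM at 30 h, and 3.65, 1.65 and 1.70 at 40 h. All 3 later sets lay above the baseline libraries, and the 30 h set, of 2 libraries, was not called. Krt19 rose by log2 1.64 ± 0.53 at 24 h (edgeR adjusted p = 0.0218) and by 1.66 ± 0.53 at 40 h (0.0125). The Krt19 call at 24 h was lost on FPKM (limma adjusted p = 0.0907) and without replicate 2 or 3 of WT at 24 h or 1 or 3 of the WT baseline (edgeR adjusted p = 0.0592 to 0.132), and that at 40 h without replicate 1 of WT at 40 h (0.123).

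KO libraries held 0.492, 0.803 and 0.566 CPM of Krt19 at baseline and 2.21, 5.07 and 1.41 at 30 h, the highest group mean of this gene. They held 1.25, 3.28 and 2.65 CPM at 40 h, 1.57, 2.51 and 0.922 at 48 h, and 0.524 and 0.216 (8 and 3 counts) at 7 days. Krt19 rose by log2 2.19 ± 0.52 at 30 h (edgeR adjusted p = 0.00131), 1.93 ± 0.52 at 40 h (0.00371) and 1.42 ± 0.53 at 48 h (0.0332). It then fell by 2.14 from 48 h to 7 days (SE 0.68, edgeR adjusted p = 0.0159). The Krt19 call at 48 h was lost on FPKM (limma adjusted p = 0.0766) and without replicate 1 or 2 of KO at 48 h or 1 or 3 of the KO baseline (edgeR adjusted p = 0.0504 to 0.199). The step to 7 days was lost without replicate 2 of KO at 48 h (0.0864) or replicate 3 of KO at 7 days (0.19), and on log2(FPKM + 1) (limma adjusted p = 0.0593).

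Beside these rises, the summed level of 30 other biliary genes was 299 to 348 CPM in WT at baseline, 377 to 419 at 24 h, 324 to 372 at 30 h and 341 to 397 at 40 h. In KO it was 324 to 343 CPM at baseline, 361 to 418 at 24 h, 358 to 406 at 30 h and 338 to 402 at 40 h. At 48 h it was 369 to 377 CPM in WT, where Krt7 stood at 0.692 and 0.560, and 361 to 458 in KO. At 7 days it was 345 to 374 CPM in WT and 358 to 380 in KO. It lay above baseline, with no overlap, at 24 and 48 h in both genotypes and at 30 h and 7 days in KO. The genes with the highest medians in that sum were Tm4sf4 (108 CPM), Aqp1 (68.0), Cldn3 (67.4) and Cdh1 (57.2), so it says little of the others. The summed level of 12 stellate cell and portal fibroblast markers was 171 to 240 CPM in WT at baseline, 248 to 314 at 24 h and 245 to 314 at 30 h. It was 265 to 417 CPM at 40 h and 285 to 353 at 48 h, and none of these times overlapped baseline. In KO it was 213 to 354 CPM at baseline, 238 to 260 at 24 h, 206 to 463 at 30 h, 325 to 631 at 40 h and 193 to 304 at 48 h. Of these 12, 2 were called higher in WT at 40 h, Des and Dcn, where 19.2% of all genes were. Their part in the rise of Krt7 and Krt19 was not tested.

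Sox9, which marks ductal plate and duct cells, was high in WT at 24 h. WT libraries held 2.12, 4.65 and 2.67 CPM at baseline and 11, 10.4 and 8.41 at 24 h, with no overlap. At 30 h they held 2.09 and 5.33 CPM, at 40 h 2.30, 4.17 and 1.90, and at 48 h 5.39 and 10.2. Sox9 rose by log2 1.65 ± 0.45 at 24 h (3.15-fold, edgeR adjusted p = 0.00736) and by 1.30 ± 0.49 at 48 h (0.0431). The Sox9 call at 24 h was lost without replicate 1 of the WT baseline (edgeR adjusted p = 0.0525). The one at 48 h, from 2 libraries, was lost without replicate 3 of WT at 48 h (edgeR adjusted p = 0.397), without replicate 1 or 3 of the WT baseline (0.152 and 0.11), and with no filter (0.0565).

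In KO livers Sox9 was called at none of the 6 times. KO libraries held 2.67, 8.16 and 2.01 CPM at baseline, 5.16, 4.41 and 5.97 at 24 h, and 3.35, 4.06 and 3.84 at 48 h. Replicate 2 of the KO baseline stood above every other KO library. The F test over time gave an edgeR adjusted p of 0.429 for Sox9 in KO and 0.00374 in WT. The change from baseline to 24 h was lower in KO than in WT by log2 1.37 (SE 0.63), and that to 48 h by 1.49 (SE 0.67), with unadjusted p of 0.0379 and 0.0331, and neither difference was called (edgeR adjusted p = 1 and 0.801).

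Spp1 (osteopontin) had 2 separate high times in WT. WT libraries held 44.2, 33.2 and 20.6 CPM at baseline, 43.3, 75.0 and 77.4 at 24 h, and 26.5 and 24.2 at 48 h. At 7 days they held 120, 90.3 and 40.6 CPM. Replicate 1 of the 24 h group and replicate 3 of the 7 day group overlap the baseline libraries. Spp1 rose by log2 1.00 ± 0.35 at 24 h (edgeR adjusted p = 0.04) and by 1.35 ± 0.36 at 7 days (2.56-fold, 0.0289), and it rose by 1.72 ± 0.41 from 48 h to 7 days (0.00219), a step at which 26.8% of all genes were called. Both calls against baseline were lost when only the 2 compared groups were fitted (edgeR adjusted p = 0.0917 and 0.308). The Spp1 call at 24 h was also lost with no filter (edgeR adjusted p = 0.0549). Leaving out 1 library ended the call at 24 h (replicate 2 or 3 of WT at 24 h or of the WT baseline, edgeR adjusted p = 0.0866 to 0.179) and at 7 days (replicate 2 or 3 of the WT baseline or 1 or 2 of WT at 7 days, 0.0735 to 0.18).

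In KO livers Spp1 was called at none of the 6 times. KO libraries held 27.1, 28.3 and 28.1 CPM at baseline, 36.3, 31.5 and 44.5 at 24 h, and 47.7 and 26.0 at 7 days, and the F test over time gave an edgeR adjusted p of 0.317, against 0.000618 in WT. The change from baseline differed between the genotypes by log2 −0.57 ± 0.50 at 24 h and −0.95 ± 0.53 at 7 days, neither called (edgeR adjusted p = 1 and 0.693). Spp1 is also made by macrophages, and the summed level of 14 Kupffer cell and macrophage markers was 138 to 213 CPM in WT at baseline, 207 to 336 at 24 h, 143 to 458 at 48 h and 271 to 655 at 7 days. At 7 days 3 of the 14 were called higher (2.25% of all genes), among them Cd5l, a secreted protein of Kupffer cells (log2 1.90 ± 0.51, edgeR adjusted p = 0.0335). At 24 h 3 of the 14 were called higher in WT (10.5% of all genes) and 2 in KO (11.5%). In KO the same sum was 237 to 333 CPM at baseline, 201 to 531 at 24 h, 142 to 316 at 48 h and 260 to 288 at 7 days, with 0 of 14 called at 7 days. At 48 h in WT the sum was 143 CPM in 1 library and 458 in the other, with Spp1 at 24.2 to 26.5. Neutrophil and monocyte markers summed to 1.99 to 2.77 CPM in WT at baseline, 9.48 to 16.1 at 24 h, 28.5 to 41.0 at 48 h and 18.2 to 50.6 at 7 days. In KO they summed to 3.96 to 6.74, 7.23 to 27.9, 29.6 to 45.7 and 16.7 to 25.3 CPM. The part of these cells in the Spp1 values was not tested.

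Epcam, the adhesion protein of duct and progenitor cells, was called at no time in either genotype. WT libraries held 1.10, 1.14 and 0.611 CPM at baseline and 0.445 and 0.392 at 48 h (log2 −1.17 ± 0.65, edgeR adjusted p = 0.173). KO libraries held 0.915, 0.927 and 1.18 CPM at baseline and 0.272, 0.585 and 0.468 at 40 h, with no overlap (−1.19 ± 0.56, edgeR adjusted p = 0.093). The KO value at 40 h passed with the compared libraries alone (edgeR adjusted p = 0.0323) and in the fit without the 96 h libraries (0.0488). The F test over time gave an edgeR adjusted p of 0.123 for Epcam in WT, 0.0495 without the 96 h libraries, and 0.0475 without replicate 1 of WT at 4 weeks.

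Cldn7, the claudin that binds Epcam, stood at 0.229 to 0.501 CPM (3 to 7 counts) in the WT baseline libraries and at 0.247 to 0.492 CPM (4 to 7 counts) in those of KO. Its lowest group was KO at 7 days, with 0.131 and 0.0721 CPM (2 and 1 counts). KO libraries at 4 weeks held 0.057, 0.223 and 0.106 CPM and WT libraries 0.235, 0.587 and 0.364, with no overlap, but these are 1 to 3 and 4 to 13 counts. DESeq2, which was run without this filter, gave an unadjusted p of 0.034 and an adjusted p of 1 for Cldn7 there. From 48 h to 7 days in KO, limma on log2(FPKM + 0.1) gave Cldn7 a call (log2 −1.68 ± 0.53, limma adjusted p = 0.0125). There KO libraries held 2, 9 and 6 counts at 48 h and 2 and 1 at 7 days, and the step was not called by DESeq2 (adjusted p = 0.354) or by edgeR with no filter (adjusted p = 0.307). No other contrast of Cldn7 was called in these 3 fits.

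At 96 h, as labelled, 0 of 7 genes were called against the WT baseline in the libraries labelled WT (27.4% of all genes) and 1 against the KO baseline in those labelled KO (44%). That gene was Krt8 (367, 371 and 452 CPM against 296, 297 and 269; log2 0.46 ± 0.16, edgeR adjusted p = 0.0175). The call was lost on FPKM (limma adjusted p = 0.453) and without replicate 3 of either group (edgeR adjusted p = 0.0667 and 0.0768). Sox9, at 2.25, 0.975 and 2.47 CPM in the libraries labelled KO, stood at log2 −1.18 ± 0.49 against the KO baseline (edgeR adjusted p = 0.0509; 0.0371 with DESeq2). Spp1 was not called in either set (edgeR adjusted p = 0.0835 and 0.0857; 0.0475 with DESeq2 in the libraries labelled WT). Epcam reached its highest group mean here, with 2.25, 0.594 and 1.70 CPM in the libraries labelled WT and 0.450, 0.520 and 2.14 in those labelled KO.

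The second comparison, KO against WT at the same condition, asks whether loss of Uhrf1 in hepatocytes changed these genes. Over 7 conditions edgeR called 0 of 49 gene-by-condition pairs, where it called 0.242% of all pairs. DESeq2, limma on FPKM, the other settings tried and the 45 fits that each left out 1 library also called 0. At an unadjusted p under 0.05 there were 11 of the 49, against 6.01% of all pairs. They fell at 24 h (2 of 7, against 3.36% of all genes), 48 h (5 of 7, 4.98%), 7 days (1 of 7, 5.49%) and 4 weeks (3 of 7, 4.82%), and 0 of 7 at baseline, 30 h and 40 h. The smallest edgeR adjusted p of the 49 was 0.424.

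**Figure D4:**
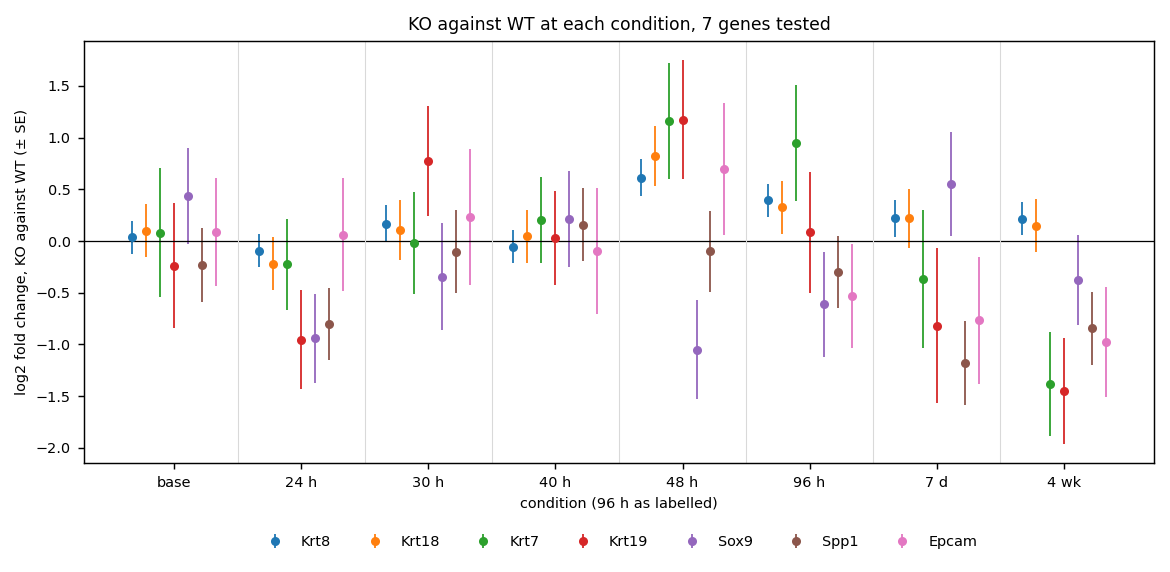
Log2 fold change of KO against WT at each condition for the 7 tested genes, with bars for the standard error; none of the points was called. At 48 h the 4 keratins lie at 0.61 to 1.17 and Sox9 at −1.05, and at 4 weeks Krt7 and Krt19 lie at −1.38 and −1.45.

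At 48 h the 4 keratins stood higher in KO and Sox9 lower, none past the adjusted threshold. Krt8 was at 708, 861 and 532 CPM in KO and 497 and 419 in WT (log2 0.61 ± 0.18, edgeR adjusted p = 0.424). Krt18 was at 542, 497 and 256 CPM in KO and 257 and 232 in WT, overlapping by 1 library (0.82 ± 0.29, edgeR adjusted p = 0.774). Krt7 was at 1.10, 1.85 and 1.28 against 0.692 and 0.560 CPM (1.16 ± 0.56), and Krt19 at 1.57, 2.51 and 0.922 against 0.593 and 0.895 (1.17 ± 0.58), in both cases with no overlap. Sox9 was at 3.35, 4.06 and 3.84 CPM in KO and 5.39 and 10.2 in WT (−1.05 ± 0.48). Of the 7 tested genes, 5 had no overlap at 48 h, where 17.9% of all genes had none. The WT group at 48 h has 2 libraries, which limits each of these comparisons.

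At 4 weeks the 2 duct keratins stood lower in KO, short of the adjusted threshold. Krt7 was at 0.228, 0.893 and 0.846 CPM in KO and 1.82, 2.21 and 0.947 in WT (log2 −1.38 ± 0.50, edgeR adjusted p = 0.65). Krt19 was at 0.456, 0.967 and 0.899 against 2.23, 2.03 and 2.04 (−1.45 ± 0.51, edgeR adjusted p = 0.623). The WT libraries of both genes also lay above the WT baseline, by 1.77 ± 0.54 for Krt7 and 1.51 ± 0.53 for Krt19, which was not called (edgeR adjusted p = 0.0997 and 0.163). Spp1 was at 21.5, 21.6 and 31.6 CPM in KO and 33.2, 53.2 and 47.8 in WT, with no overlap (−0.84 ± 0.35, edgeR adjusted p = 0.911). Of the 7 tested genes, 3 had no overlap at 4 weeks, where 13.9% of all genes had none.

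At 24 h Sox9 was at 5.16, 4.41 and 5.97 CPM in KO and 11, 10.4 and 8.41 in WT (log2 −0.94 ± 0.43), with no overlap, and edgeR gave an adjusted p of 1. Spp1 was at 36.3, 31.5 and 44.5 against 43.3, 75.0 and 77.4 CPM (−0.80 ± 0.35, edgeR adjusted p = 1). Of the 7 tested genes, 2 had no overlap at 24 h, where 8.89% of all genes had none. At 7 days Spp1 was at 47.7 and 26.0 in KO and 120, 90.3 and 40.6 in WT (−1.18 ± 0.40, edgeR adjusted p = 0.554). As labelled at 96 h, 0 of 7 genes were called, and Krt8 alone had an unadjusted p under 0.05, where 28.6% of all genes did (log2 0.40 ± 0.16, edgeR adjusted p = 0.0917). Without replicate 3 of the libraries labelled KO, Epcam was called lower in KO there.

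Averaged over the 7 conditions, 0 of 7 genes were called (2.13% of all genes), with 2 at an unadjusted p under 0.05 (10.6% of all genes). These were Spp1, lower in KO (log2 −0.44 ± 0.14, edgeR adjusted p = 0.111), and Krt8, higher in KO (0.16 ± 0.063, edgeR adjusted p = 0.295). DESeq2 called Spp1 (adjusted p = 0.0494), as did edgeR without replicate 2 of KO at 40 h (adjusted p = 0.0363) or replicate 3 of WT at 7 days (0.0355). The mean difference was 0.17 ± 0.10 for Krt18, −0.22 ± 0.18 for Sox9, −0.21 ± 0.21 for Krt19, −0.11 ± 0.23 for Epcam and −0.077 ± 0.20 for Krt7, all at an edgeR adjusted p of 0.59 or more. The members' median was −0.11 and the median of all genes −0.0047.

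A joint test of whether the 2 time courses differ called 0 of 7 genes (0.0426% of all genes), with 1 at an unadjusted p under 0.05 (5.66% of all genes), Krt19 (edgeR adjusted p = 0.69). Taken time by time, the difference in the change from baseline was called for 0 of 42 pairs (0.0071% of all pairs), and 3 had an unadjusted p under 0.05 (5.81% of all pairs). They were Sox9 at 24 and 48 h, above, and Krt8 at 48 h (log2 0.58 ± 0.24 higher in KO, edgeR adjusted p = 0.795).

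How the genes varied together across the 45 libraries is given as Pearson r of log2 CPM, with the r after removal of group means second. Krt7 and Krt19 gave 0.856 and 0.73, Krt8 and Krt18 gave 0.717 and 0.789, and Epcam and Spp1 gave 0.555 and 0.644. After removal of group means Epcam also gave 0.561 with Krt19 and 0.407 with Krt7, and Spp1 gave 0.447 with Krt19 and 0.413 with Krt7. Krt7 with Krt8 gave 0.336 and −0.236, and Sox9 with Krt7 gave 0.00265 and −0.0539. These libraries share their surgery times and their scaling, so the values describe and do not test. By the same measure the genes most like Krt7 were S100a6, a small calcium-binding protein (0.878), Slpi (0.791) and Ezr, the membrane linker ezrin (0.787). Those most like Krt19 were Des, the desmin filament of stellate and muscle cells (0.722), Ehd2 (0.719) and Bicc1, a duct RNA-binding protein (0.71). For Krt8 they were Jpt1 (0.835), Calm3 (0.816) and Anapc7, of the anaphase-promoting complex (0.812), and for Krt18 Srxn1, which repairs oxidised peroxiredoxins (0.795), Ncald (0.776) and Faap20 (0.759). For Sox9 they were Zbtb7b (0.732), Tnfaip2 (0.668) and Zfp36l1 (0.668). Spp1 had M6pr (0.573), Cd53, a leukocyte tetraspanin (0.529), and C9 (0.529). Epcam had H2-K2 (0.62), Slc35d2 (0.616) and 5830473C10Rik (0.614), and Cldn7 had Gsn (0.502), Dpt (0.5) and Pamr1 (0.484).

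Other biliary genes did not move as 1 group. Of 30 such genes with counts, 23 were tested, and the F test over time called 7 in WT and 12 in KO, against 53.6% and 65.7% of all genes. At 40 h 1 was called higher and 2 lower in WT, where 19.2% of all genes were called higher and 17.3% lower. In KO 2 were called higher and 3 lower at 40 h, where 35.6% of all genes were called. In WT Elf3, an epithelial transcription factor, rose at 24 h (log2 2.36 ± 0.57, edgeR adjusted p = 0.00238), and Tm4sf4, a membrane protein, rose at 40 h (1.04 ± 0.18, 2.42e-05). Krt23, another type I keratin, fell by 2.58 at 30 h (SE 0.83, edgeR adjusted p = 0.0274), and Dcdc2a, a cilium gene of duct cells, fell by 1.18 at 30 h (SE 0.42, 0.0455). In KO against WT 0 of the 23 were called at any of the 7 conditions (0.242% of all pairs) or in their mean (2.13% of all genes).

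For the linked pathways, too, the F test counts stand beside 53.6% of all genes in WT and 65.7% in KO. Of 14 tested Notch pathway genes, which direct duct fate, 3 were called over time in WT and 7 in KO. The ligand Dll1 rose at 48 h in WT (log2 1.40 ± 0.31, edgeR adjusted p = 0.000568), the coactivator Maml1 fell by 0.45 at 40 h (SE 0.14, 0.0125), and the receptor Notch1 stood at 0.63 ± 0.30 at 40 h, not called at that time (0.101). Of 13 YAP and TEAD target genes, 7 were called in WT and 8 in KO. Ajuba rose at 24 h (1.28 ± 0.42, edgeR adjusted p = 0.0256), F3 (tissue factor) fell by 1.5 at 48 h (SE 0.40, 0.00418), and Ccn1 (−1.06 ± 0.44 at 40 h, 0.0569) and Ccn2 (−1.40 ± 0.60 at 7 days, 0.205) were not called at those times.

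Of 15 tight junction genes beside Cldn7, 8 were called over time in WT and 10 in KO, close to the shares of all genes (53.6% and 65.7%). Cldn15 (log2 3.27 ± 0.90) and Marveld3 (3.04 ± 0.47) rose at 30 h and Cldn14 (1.24 ± 0.23) at 24 h in WT, while Tjp3, a junction scaffold, fell by 1.27 at 40 h (SE 0.37), with edgeR adjusted p of 0.00951, 1.53e-05, 0.000121 and 0.00682. Of 11 partners of the keratin filament in desmosomes and the nuclear envelope, 8 were called in WT and 9 in KO. The plakins Ppl (2.26 ± 0.26) and Evpl (2.48 ± 0.56) rose at 40 h, and Plec (0.97 ± 0.16) and the lamin gene Lmna (1.46 ± 0.12) at 48 h, with edgeR adjusted p of 1.30e-08, 0.000603, 1.80e-05 and 5.01e-12. Of 12 receptors and partners of osteopontin, 8 were called in WT and 9 in KO, and at 40 h in WT 5 were called higher and 0 lower, where 19.2% of all genes were called higher (median log2 0.70, against −0.0029 for all genes). Among them Itgb5, an integrin subunit, was higher in KO over the 7 conditions (0.20 ± 0.045, edgeR adjusted p = 0.00903).

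The marker lists of other cells gave the following counts, beside 53.6% of all genes called over time in WT and 65.7% in KO. In WT and KO in turn, the F test called 9 and 6 of 14 macrophage, 6 and 4 of 7 neutrophil and monocyte, 2 and 9 of 10 endothelial, and 3 and 9 of 12 stellate and portal fibroblast markers. It called 7 and 9 of 12 hepatocyte, 4 and 3 of 5 exocrine pancreas and gut, and 10 and 10 of 10 proliferation markers. The proliferation markers rose in both genotypes at 40 h (median log2 6.55 in WT and 6.24 in KO). In KO against WT over the 7 conditions, 1 gene of these 7 lists was called in the mean, where 2.13% of all genes were. It was the replication gene Rrm2 (0.65 ± 0.12 higher in KO, edgeR adjusted p = 0.000612).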

How the data were processed

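Poly(A) RNA of mouse liver was sequenced from TruSeq libraries as 100 bp paired-end reads, per the labels' protocols. The authors deposited whole-number read counts per gene and, in a separate table, FPKM values. Per the submitters' processing notes the tools were FastQC 0.11.5, Trimmomatic, TopHat2 2.1.0, Cufflinks 2.2.1, HTSeq and DESeq2, on mm10. The sources used here do not give the annotation, strand setting or parameters. The table of counts has 19966 genes, of which 103 IDs matched no symbol, and the FPKM table has 46472 rows with 66 repeated IDs. Total counts per library were 12.85 M to 23.13 M, and members with a few counts per library are limited by counting error. Libraries of 1 group differed by more than sampling noise in all 42 pairs (chi-square per degree of freedom 18.79 to 137.1), so none was treated as 1 library deposited a second time; this does not show that they are separate animals.

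Counts were tested with edgeR 4.0.16 (quasi-likelihood, robust, TMM, filterByExpr, 16 group means, 14090 genes) in R 4.3.3, with Benjamini-Hochberg adjustment over all tested genes and a threshold of 0.05. CPM in the text are TMM-scaled, and errors of log2 fold changes are standard errors. Alternatives were DESeq2 1.42.0, RLE size factors, no filter, limma 3.58.1 on log2(FPKM + 0.1) and log2(FPKM + 1) with at least 0.5 FPKM in 2 libraries, a replicate block, the compared libraries alone, the fit without the 96 h libraries, 96 h included, and each library left out. The edgeR and limma steps were tested on simulated data. The 96 h libraries were kept apart because, in earlier results of these data, those labelled WT stood with the KO libraries. Uhrf1 does not separate the 96 h libraries by label, nor those of 7 days, which were kept.

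The members and the 13 other gene lists (191 symbols) were chosen with earlier results of these data known, and steps between times, per-time differences of change and the keratin ratio were added after the values were seen. Always named were the 8 members and Uhrf1, for each member the 3 genes with the highest Pearson r over 45 libraries (mean log2 CPM of at least 1), and of each list those called in the mean of KO against WT, else up to 4 with the largest change among those called over time in WT; some of the latter are given only as counts. Promoters are from RefSeq (GRCm38.p6).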

Additional observations from a re-analysis of the deposited data

How the results depend on the processing

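Of 795 gene-level comparisons under settings other than single libraries left out, 744 kept their direction and side of the threshold, 27 lost a call, 24 gained one and 0 reversed. The number of gene-by-time pairs called was 14 of 42 in KO and 9 with limma on log2(FPKM + 0.1) and on log2(FPKM + 1). It was 14 to 18 in the other settings (18 with the compared libraries alone). In WT it was 14, and 11 to 16 over the settings. The mean difference over 7 conditions called 1 gene with DESeq2, Spp1, against 0 with edgeR. With each library left out in turn, calls ranged from 9 to 16 for WT times, 9 to 14 for KO times, 5 to 7 for the F test in WT, 4 to 4 for that in KO, 0 to 1 for the mean difference, 0 to 1 for labelled 96 h (Epcam, without replicate 3 of the libraries labelled KO), and 0 to 0 for the 7 conditions and the joint test. The mean difference of Krt7 turned from log2 −0.077 to 0.012 without replicate 2 of WT at 24 h and to 0.011 without replicate 1 of WT at 40 h, and it ranged from −0.158 to 0.012 over the libraries left out.

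The main fit did not pair samples by replicate number. Of 21 same-numbered pairs 8 had a correlation of deviations over 0.1 (−0.306 to 0.306). Pairs with different numbers were not compared, so these values cannot tell whether the numbers pair the samples. With the replicate block 13 WT and 14 KO pairs were called. It ended the calls of Sox9 at 48 h in WT (edgeR adjusted p = 0.0551), of Krt8 and Krt18 from 40 to 48 h in KO (0.0525 and 0.0512) and of Krt18 from 48 h to 7 days in KO (0.0632), gave a call for Sox9 in the libraries labelled KO at 96 h (0.0484), and changed no other call. Depth limits Krt7, Krt19, Epcam and Cldn7, whose baseline levels rest on a few counts per library.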
